A study of Sus scrofa with 8 samples.

Results

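The genes described here are the early response transcription factors of the EGR, NR4A and KLF families in pig heart. They were taken by name: EGR1, EGR2, EGR3, NR4A1, NR4A2, NR4A3, KLF2, KLF4, KLF6 and KLF10 were looked up in the deposited table of 18975 genes, and 8 of the 10 names were found. The names NR4A3 and KLF4 were not used by any row, which is taken up below for each gene. The libraries came from the hearts of male pigs aged 6 months of 2 breeds, Tibetan and Yorkshire, each raised in the highland or in the lowland. The 4 groups were Tibetan pigs of the highland (TH), Tibetan pigs of the lowland (TL), Yorkshire pigs of the highland (YH) and Yorkshire pigs of the lowland (YL), with 2 RNA-seq libraries per group and 8 in all. The RNA of 4 pigs went into each library as a pool, and p-values and SDs therefore measure how pools differ, not how animals do.

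Early response genes are transcribed within a short time of a stimulus, without the need for newly made protein, and their transcripts are short-lived. Growth factors, mechanical stretch, injury, stress hormones and ischaemia are among the stimuli that induce them in heart muscle, vessels and blood cells, and serum response factor, CREB and MEF2 proteins are among the factors that act on their promoters. EGR proteins are zinc-finger factors that bind GC-rich sites, NR4A proteins are orphan nuclear receptors whose activity is set mainly by how much of them is made, and KLF proteins are zinc-finger factors that bind GC-rich and CACCC sites.

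Between 15686825 and 26722609 reads per library fell on genes, and genes of the mitochondrial genome took 57.7 to 87.6% of the summed FPKM. Levels are given as FPKM (fragments per unit of transcript length and of mapped fragments), which is per length and can be set side by side between genes. All 6 cardiomyocyte markers that the table names (of 10 looked up) were present, at a summed level of 12580 to 34830 FPKM. The library YL2 stood apart: its 9 kidney marker genes summed to 4451 FPKM, against 0.0855 to 17.0 FPKM in the other 7 libraries, so the main differences that rest on YL2 are also given without it. In these tissue libraries, fewer cells of a type and less RNA per cell cannot be told apart.

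EGR1, the member of its family with the highest level, lies on chromosome 2 at 146156064 to 146160020 (Sscrofa10.2) and was read at 51.15 and 65.48 FPKM (TH), 45.57 and 30.5 FPKM (TL), 4.575 and 11.46 FPKM (YH) and 4.954 and 10.37 FPKM (YL). All 4 Tibetan libraries were above all 4 Yorkshire libraries, and the lowest Tibetan value was 2.66 times the highest Yorkshire value. The group means were 58.3 ± 10.1 FPKM (SD, n = 2) in TH, 38.0 ± 10.7 in TL, 8.02 ± 4.87 in YH and 7.66 ± 3.83 in YL. The libraries of TH and TL did not overlap, those of YH and YL did. EGR1 rested on 240 to 3584 reads per library.

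EGR2 (chromosome 14, 71516962 to 71521113), known for its part in hindbrain patterning and myelination, followed the same order at a much lower level. Its values were 2.528 and 3.125 FPKM (TH), 2.158 and 1.058 FPKM (TL), 0.283 and 0.6895 FPKM (YH) and 0.1938 and 0.2437 FPKM (YL). Here too every Tibetan library was above every Yorkshire library, and no 2 groups next to each other in the order TH, TL, YH, YL overlapped. The Yorkshire values rested on few reads, 9 to 45 per library, against 72 to 156 in the Tibetan libraries. The ratio of EGR2 to EGR1 within a library stayed between 0.0235 and 0.0619.

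EGR3 (chromosome 14, 7426275 to 7428160), known from muscle spindles and lymphocytes, was close to the limit of detection. It was read at 0.0609 and 0.916 FPKM (TH), 1.262 and 0.344 FPKM (TL), 0 and 0.453 FPKM (YH) and 0 and 0.0347 FPKM (YL). These values rested on 0 to 25 reads, and a count of 0 reads, as in YH1 and YL1, allows up to 3 reads. The breeds overlapped, and EGR3 reached 1 FPKM in 1 library only, which kept it out of the tests.

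NR4A1 (Nur77), induced in many tissues by stress and growth signals, had the highest mean level of the 8 genes. It was read at 47.3 and 102.0 FPKM (TH), 266.0 and 106.2 FPKM (TL), 10.29 and 13.63 FPKM (YH) and 12.51 and 10.77 FPKM (YL). The Yorkshire libraries lay close together, all 4 Tibetan libraries were above them, and both TL libraries were above both TH libraries. The group means were 74.6 ± 38.7 FPKM in TH, 186.1 ± 113.0 in TL, 11.96 ± 2.36 in YH and 11.6 ± 1.23 in YL (SD, n = 2), so the spread between pools was much wider in the Tibetan groups. The gene model sits on the unplaced scaffold GL892233.1 at 20 to 1787, and reads shared with any other copy of the gene in the assembly were not examined.

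NR4A2 (Nurr1; chromosome 15, 70671006 to 70679616), best known from dopamine neurons, was read at 3.922 and 6.213 FPKM (TH), 20.9 and 4.818 FPKM (TL), 0.926 and 1.005 FPKM (YH) and 1.72 and 1.012 FPKM (YL). As with NR4A1, every Tibetan library was above every Yorkshire library and TL1 was the highest of all. The libraries of TH and TL overlapped, because TL2 lay between those of TH. NR4A2 was 0.0454 to 0.138 times NR4A1 within a library, and it rested on 72 to 1592 reads.

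The third gene of the family, NR4A3, is in the table under its older name NOR-1 (chromosome 1, 269817144 to 269852707) and was matched by its Ensembl identifier, so it was not picked by name and is not counted among the 8. Its row was read at 1.151 and 6.389 FPKM (TH), 44.65 and 77.11 FPKM (TL), 1.563 and 1.968 FPKM (YH) and 12.18 and 3.039 FPKM (YL). Unlike NR4A1 and NR4A2, NR4A3 overlapped between the breeds, and both lowland groups were above the highland group of the same breed without overlap. Relative to NR4A1, NR4A3 ranged from 0.0243 in TH1 to 0.974 in YL1.

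**Figure D1:**
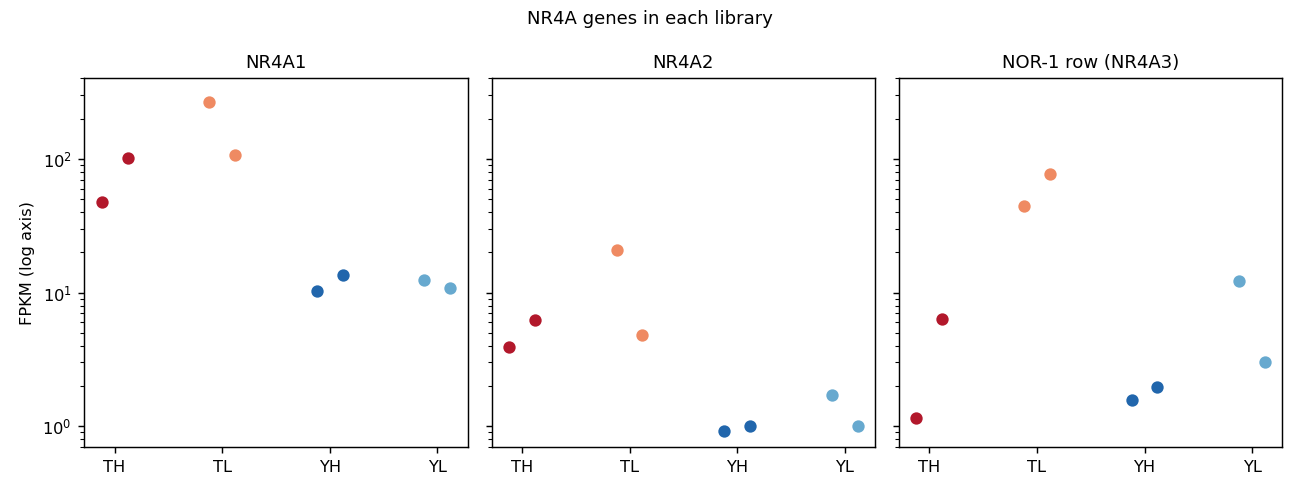
FPKM of NR4A1, NR4A2 and the row named NOR-1 (NR4A3) in each library on a log axis, with 2 points per group for the 2 pooled libraries. NR4A1 and NR4A2 separate the Tibetan from the Yorkshire libraries, and NR4A3 is highest in TL, at 44.65 and 77.11 FPKM.

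KLF6, a broadly expressed factor linked to growth control and vascular injury, lies on chromosome 10 at 72992244 to 73001823 and had the highest mean level of the KLF genes. It was read at 20.56 and 26.21 FPKM (TH), 22.67 and 28.77 FPKM (TL), 14.76 and 21.23 FPKM (YH) and 15.63 and 8.428 FPKM (YL). The Tibetan and Yorkshire ranges overlapped only through YH2, which was above TH1. KLF6 was the steadiest of the 8 genes, with a highest value 3.41 times its lowest.

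The row named KLF2 (ENSSSCG00000005437, chromosome 1, 279056680 to 279061593) cannot be taken as KLF2 with certainty. A table of gene names gives its identifier as KLF4, and of its 6 nearest named neighbours in the deposited table, 5 lie within 3 Mb of KLF4 in the RefSeq annotation of Sscrofa11.1 and 0 within 3 Mb of KLF2. Both KLF2 and KLF4 are induced by blood flow in vessel lining cells. The row was read at 10.44 and 21.33 FPKM (TH), 24.11 and 16.61 FPKM (TL), 8.664 and 9.027 FPKM (YH) and 10.63 and 4.446 FPKM (YL). The breeds met at a single point, as TH1 was just below YL1.

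KLF10 (chromosome 4, 37443339 to 37453430), an early gene of TGF-beta signalling, was barely present. It was read at 0.121 and 1.018 FPKM (TH), 0.472 and 0.593 FPKM (TL), 0.547 and 0.704 FPKM (YH) and 0.518 and 0.376 FPKM (YL), from 7 to 50 reads. Its lowest and its highest value were both in TH, and it passed 1 FPKM in TH2 alone, so it was not tested.

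**Figure D2:**
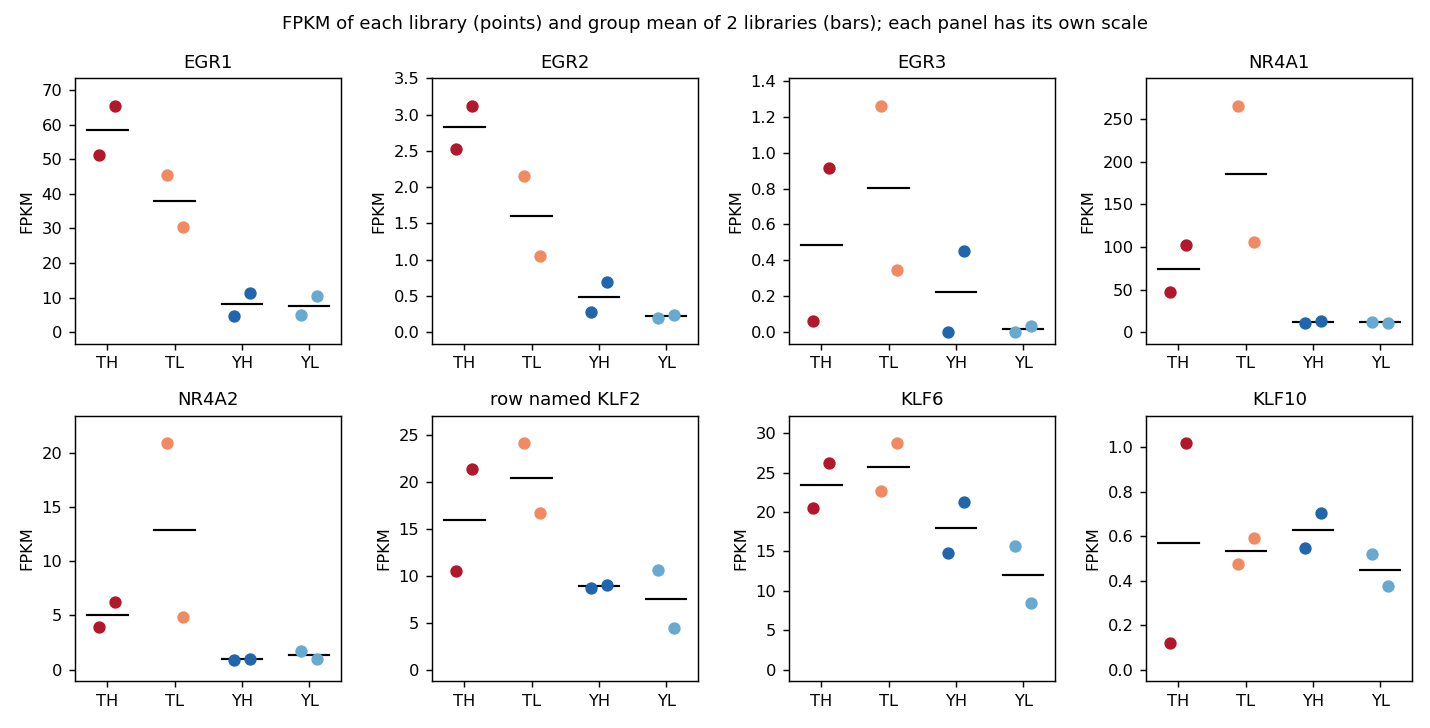
FPKM of each of the 8 named genes in the 8 libraries (points) with the mean of the 2 libraries of each group (bars), each panel on its own linear scale. EGR1, EGR2, NR4A1 and NR4A2 show all 4 Tibetan libraries above all 4 Yorkshire libraries, KLF6 and the row named KLF2 nearly so, and EGR3 and KLF10 do not.

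Within a library, NR4A1 was first and EGR1 second of the 8 genes in TH2, TL1 and TL2, and also in YL2. The row for NR4A3 is not counted here and was above EGR1 in TL2, at 77.11 against 30.5 FPKM. EGR1 was first in TH1, and KLF6 was first in the other 3 Yorkshire libraries. The summed level of the 8 genes was 136.1 to 383.2 FPKM in the Tibetan libraries and 35.7 to 58.2 FPKM in the Yorkshire libraries. NR4A1 held 34.8 to 69.4% of that sum in the Tibetan libraries and 23.4 to 30.2% in the Yorkshire libraries.

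To ask whether the breeds differ, the 4 Tibetan libraries were compared with the 4 Yorkshire libraries as the mean of the differences at both altitudes. All 6 tested genes had a difference above 0, as did 48.4% of all tested genes. EGR2 supports no direction here, because only its Tibetan libraries reached the 1 FPKM needed for testing. NR4A1 and EGR1, 2 of the 6, passed an adjusted p of 0.05. Differences are log2 fold changes of FPKM + 1 from limma with Benjamini-Hochberg adjustment over 11913 genes, a scale that understates the change of genes at a few FPKM. NR4A1 was higher by 3.10 (SE 0.36, 95% confidence interval 2.24 to 3.96, adjusted p = 0.0322). For EGR1 the difference was 2.52 (SE 0.34, interval 1.72 to 3.32, adjusted p = 0.042). In ratios of breed means, NR4A1 was 11.1 times (7.22 times without TL1) and EGR1 6.15 times as high in the Tibetan libraries.

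EGR2 and NR4A2 differed by 1.22 (SE 0.20, limma adjusted p = 0.0638) and 1.94 (SE 0.41, adjusted p = 0.121), with breed means 6.29 and 7.69 times as high. Without TL1 the ratio of NR4A2 was 4.28. The KLF genes had smaller differences, 1.05 (SE 0.32, limma adjusted p = 0.235) for the row named KLF2 and 0.73 (SE 0.24, adjusted p = 0.268) for KLF6. At the threshold of the study, an adjusted p under 0.01 with a log2 difference above 1 in size, 0 of the 6 genes were called by limma, against 0.0504% of all tested genes. At an adjusted p under 0.05 limma called 2 of the 6, EGR1 and NR4A1, against 0.453% of all tested genes. The unadjusted p was under 0.05 for 6 of the 6, against 13.5% of all tested genes. Tibetan libraries without overlap above the Yorkshire libraries were seen for 4 of the 6, EGR1, EGR2, NR4A1 and NR4A2, against 4.57% of all tested genes. EGR2 passed the filter of 1 FPKM in 2 libraries through the Tibetan libraries alone, which favours a higher Tibetan level, so its place in these counts supports no direction. Of the other 5 genes, 5 had an unadjusted p under 0.05 and 3 had no overlap. These counts without EGR2, and the ratios without TL1, were added after seeing the data. The median difference of the 6 genes was 1.58 (1.94 without EGR2), beside -0.01 over all tested genes. EGR3 and KLF10 had no part in these counts. With no filter on low values, limma gave 0.51 for EGR3 (interval -0.15 to 1.17, adjusted p = 0.538) and -0.01 for KLF10 (interval -0.49 to 0.46, adjusted p = 0.979). The row for NR4A3 differed by 1.78 (SE 0.51, limma adjusted p = 0.219), by 1.34 without TH2 and by 2.23 without TH1.

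The breed differences of the 6 tested genes kept their sign in each alternative analysis, but the adjusted p of NR4A1 and EGR1 moved across 0.05. Over 16 alternatives the limma adjusted p of NR4A1 ran from 0.0115 to 0.168, with 7 under 0.05, and that of EGR1 from 0.0149 to 0.194, with 5 under 0.05. Leaving out YL2, the library with kidney transcripts, gave 3.05 for NR4A1 (limma adjusted p = 0.0439) and 2.75 for EGR1 (adjusted p = 0.0344). Without any 1 of TH1, TH2, TL1, TL2, YH1 or YH2 both were at or over an adjusted p of 0.05, between 0.0614 and 0.194. Without YL2 the difference was 1.23 for EGR2, 1.83 for NR4A2, 0.78 for the row named KLF2 and 0.52 for KLF6. The limma adjusted p of NR4A2 was 0.0528 to 0.405 over its alternatives and that of EGR2 0.029 to 0.341, with 13 of 15 at or over 0.05. On the authors' scaled reads in place of FPKM, a setting chosen after seeing the data, EGR2 differed by 2.67 (limma adjusted p = 0.0305).

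Summed marker levels of other cell types differed between the groups as well. The 4 blood genes (all of 4 looked up) summed to 1625 to 3088 FPKM (TH), 1233 to 1400 (TL), 1028 to 1061 (YH) and 527.7 to 631.3 (YL). The 6 endothelial markers found of 8 summed to 156.0 to 162.4 FPKM (TH), 136.2 to 152.8 (TL), 121.8 to 136.9 (YH) and 80.7 to 89.8 (YL). The 4 smooth muscle markers, all of 4 looked up, summed to 303.9 to 327.5 FPKM (TH), 184.3 to 199.8 (TL), 129.0 to 185.1 (YH) and 81.7 to 89.7 (YL). The high sum in TH came from TAGLN and CNN1. MYH11 was lower in TH, at 0.388 and 2.695 FPKM, than in TL, at 4.866 and 3.618 FPKM, and ACTA2 overlapped between TH and TL. The fibroblast markers (6 of 6) summed to 192.2 to 632.0 FPKM (TH), 602.6 to 770.5 (TL), 301.7 to 367.0 (YH) and 217.8 to 261.0 (YL). Macrophage markers (5 of 6) summed to 35.65 to 37.0 FPKM (TH), 65.14 to 66.9 (TL), 58.71 to 71.98 (YH) and 46.99 to 58.45 (YL). The low sum in TH came from C1QA, at 4.488 and 13.06 FPKM in TH and 22.88 to 45.55 FPKM elsewhere, while CD68 was higher in TH than in TL or YL. T cell markers (4 of 4) summed to 2.419 to 2.836 FPKM (TH), 5.261 to 6.348 (TL), 16.13 to 18.94 (YH) and 5.19 to 7.961 (YL). None of these markers was at 0 in every library. The blood sum separated the breeds without overlap, but it was carried by the globins HBB and HBA, while ALAS2 overlapped and SLC4A1 was highest in YL2, at 5.075 FPKM. The largest part of the endothelial sum was PECAM1, at 71.39 to 96.78 FPKM in the Tibetan and 35.73 to 65.56 FPKM in the Yorkshire libraries, whereas KDR and TEK were higher in both YH libraries than in any Tibetan library. The part of these cell types in the result was not tested.

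At high altitude, the comparison of TH with YH gave 2.82 for EGR1 (SE 0.48, limma adjusted p = 0.0805) and 2.46 for NR4A1 (SE 0.51, adjusted p = 0.118). EGR2 differed by 1.37 (limma adjusted p = 0.112) and NR4A2 by 1.60 (adjusted p = 0.258). For the row named KLF2 the 95% interval ran from -0.38 to 1.78 and for KLF6 from -0.43 to 1.18. limma called 0 of the 6 genes, against 0.0336% of all tested genes, and 4 of the 6 had an unadjusted p under 0.05, against 16.2%. The study used DESeq, and NR4A1 was among the differentially expressed genes that it listed for this comparison. Both TH libraries were above both YH libraries in 5 of the 6 genes, all but KLF6, against 25.2% of all tested genes. Without EGR2, which the filter kept through its Tibetan levels, these counts were 3 of 5 by unadjusted p and 4 of 5 without overlap. In the row named KLF2, TH1 at 10.44 FPKM rested on 340 reads, and the YH libraries at 8.664 and 9.027 FPKM on 506 and 529 reads. On scaled reads its difference was 0.46, beside 0.70 on FPKM. The median of the 6 genes was 1.49, beside -0.03 over all tested genes.

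At low altitude, NR4A1 showed the widest gap between TL and YL, 3.75 (SE 0.51, interval 2.53 to 4.96, limma adjusted p = 0.143). For NR4A2 the difference was 2.27 (SE 0.58, limma adjusted p = 0.309, and 1.31 without TL1). The other differences were 2.22 for EGR1 (SE 0.48, limma adjusted p = 0.255), 1.40 for the row named KLF2 (adjusted p = 0.415), 1.08 for KLF6 (adjusted p = 0.408) and 1.07 for EGR2 (adjusted p = 0.322). limma called 0 of the 6 genes, against 0.00839% of all tested genes, while 6 of the 6 had an unadjusted p under 0.05, against 8.94%. Both TL libraries were above both YL libraries in 6 of the 6 genes, against 23.8% of all tested genes. Without EGR2, for the same reason, both counts were 5 of 5. Without YL2 the differences were 3.65 for NR4A1, 2.69 for EGR1, 2.05 for NR4A2, 1.09 for EGR2, 0.85 for the row named KLF2 and 0.68 for KLF6, all with a limma adjusted p of at least 0.172. The row for NR4A3 differed by 3.03 at low altitude (SE 0.72, limma adjusted p = 0.286, and 2.18 without YL2) and by 0.53 at high altitude (adjusted p = 0.739), where it was 1.42 without TH1 and turned to -0.36 without TH2.

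**Figure D3:**
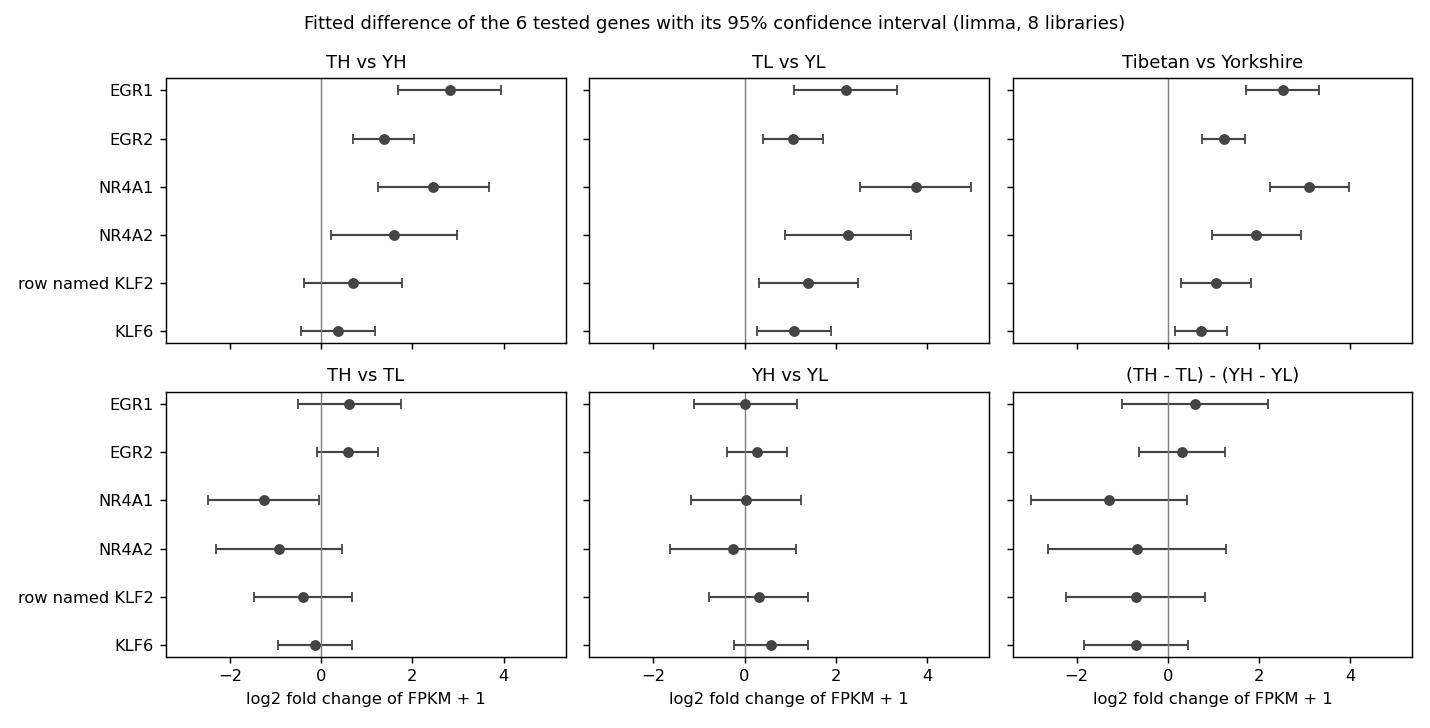
Fitted log2 fold change of FPKM + 1 (points) with its 95% confidence interval (bars) for the 6 tested genes in each comparison, from limma on all 8 libraries. The intervals lie above 0 for all 6 genes in TL vs YL and Tibetan vs Yorkshire and for 4 genes in TH vs YH. EGR2 is counted in each, and was tested through its Tibetan levels alone. In TH vs TL only the interval of NR4A1, -2.47 to -0.05, lies below 0.

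Within the Tibetan breed the altitude differences of EGR1 and EGR2 had the opposite sign to those of NR4A1 and NR4A2. For EGR1 and EGR2 the difference of TH from TL was 0.62 (SE 0.48) and 0.58 (SE 0.28), with limma adjusted p of 0.674 and 0.485. These were 0.90 and 0.89 without TL1 and 0.34 and 0.27 without TL2. For NR4A1 it was -1.26 (SE 0.51, unadjusted p = 0.0433, limma adjusted p = 0.422) and for NR4A2 -0.92 (SE 0.58, adjusted p = 0.596). limma called 0 of the 6 genes, against 0.0504% of all tested genes, and the unadjusted p was under 0.05 for 1 of the 6, NR4A1, against 11.3%. No overlap between TH and TL was seen in 3 of the 6 genes, against 48.5% of all tested genes. NR4A1 was 5.84 and 3.48 times EGR1 in the TL libraries, against 0.925 and 1.56 times in those of TH, 2.25 and 1.19 times in those of YH and 2.53 and 1.04 times in those of YL. Both TL libraries had a higher ratio than the other 6 libraries.

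TL1 carried much of the difference with altitude of NR4A1 and NR4A2. Without TL1 the difference of TH from TL was -0.60 for NR4A1 and 0.03 for NR4A2, and without TL2 it was -1.92 and -1.88. For NR4A1 it was -0.72 without TH1. The row for NR4A3 had the widest gap, -3.90 (SE 0.72, interval -5.62 to -2.19, unadjusted p = 0.0011, limma adjusted p = 0.179), and it was -3.01 without TH1, -4.79 without TH2, -4.29 without TL1 and -3.52 without TL2. The summed level of the atrial markers (4 of 4 found) was also higher in TH, carried by MYL7 and NPPA. It was 5376 to 6610 FPKM in TH against 1478 to 2527 in TL, 604.4 to 1031 in YH and 388.7 to 2609 in YL. SLN too was highest in TH, at 56.47 and 16.31 FPKM against 0.8125 to 3.516 FPKM elsewhere, and MYL4 was not. The part of these markers in the differences with altitude or breed was not tested.

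In the Yorkshire breed no difference with altitude passed the test. EGR1 and NR4A1 differed by 0.02 and 0.03 between YH and YL, with 95% intervals of -1.11 to 1.15 and -1.18 to 1.24, wide enough to hold a change of more than 1 on the log2 scale. EGR1 differed by 0.48 without YL2, -0.45 without YL1, 0.60 without YH1 and -0.56 without YH2. Of the 6 genes KLF6 had the widest difference in the main fit, 0.58 (SE 0.34, limma adjusted p = 0.784), and it was 0.17 without YL2 and 0.99 without YL1. This rank did not hold without YL2, where EGR1 was at 0.48 and NR4A2 at -0.47. Nor did it hold on scaled reads, where EGR2 was at 0.93 and KLF6 at 0.51. The row for NR4A3 differed more, by -1.40 (SE 0.72, unadjusted p = 0.0945, limma adjusted p = 0.784), with -2.26 without YL2 and -0.55 without YL1. limma called 0 of the 6 genes, where 0% of all tested genes were called, and the unadjusted p was under 0.05 for 0 of the 6, against 5.97%. No overlap was seen in 2 of the 6 genes, EGR2 (higher in YH) and NR4A2 (lower in YH), against 36.3% of all tested genes.

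Whether the altitude difference itself differed between the breeds was tested with the interaction, the difference of TH from TL minus that of YH from YL. It was -1.29 for NR4A1 (SE 0.72, interval -3.00 to 0.42, limma adjusted p = 0.543) and 0.60 for EGR1 (SE 0.67, adjusted p = 0.732). limma called 0 of the 6 genes, against 0.0336% of all tested genes, and the unadjusted p was under 0.05 for 0 of the 6, against 10.9%. For the row of NR4A3 the interaction was -2.50 (SE 1.02, unadjusted p = 0.0453, limma adjusted p = 0.445). Single libraries moved these values: NR4A1 was at -0.63 without TL1, -1.95 without TL2 and -0.74 without TH1. EGR1 was at 0.02 without YH1, 1.18 without YH2, 1.07 without YL1, 0.14 without YL2 and 0.32 without TL2, and NR4A3 at -1.65 without YL2, -1.61 without TH1, -3.39 without TH2 and -3.35 without YL1. A breed difference at one altitude was thus not shown to differ from that at the other for any of the 6 genes.

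Other early response genes were compared between the breeds in the same way. Of 39 looked up, 34 were in the table and 33 were tested, and 29 of the 33 had a difference above 0, as did 48.4% of all tested genes, with a median difference of 0.64 beside -0.01 over all tested genes. The unadjusted p was under 0.05 for 17 of them, each higher in the Tibetan libraries, against 13.5% of all tested genes in either direction. limma called 1 at an adjusted p under 0.01, against 0.0504% of all tested genes. This was FOS, a subunit of the AP-1 factor, at 53.85 and 85.49 FPKM (TH), 50.91 and 41.97 FPKM (TL), 3.401 and 5.913 FPKM (YH) and 4.301 and 5.982 FPKM (YL). FOS differed by 3.30 (SE 0.24, limma adjusted p = 0.00552), and its adjusted p was under 0.01 in 7 of 16 alternatives and under 0.05 in 14. At an adjusted p under 0.05 limma called 4 of the 33, against 0.453% of all tested genes, adding ATF3, a stress-induced factor (3.30), and CTGF and CYR61, secreted proteins of the matrix (2.07 and 1.91). Over 16 alternatives the limma adjusted p was at or over 0.05 in 6 for ATF3 (up to 0.107), 9 for CTGF (up to 0.18) and 8 for CYR61 (up to 0.126). Of the 5 genes with the highest mean level, CTGF aside, DUSP1 differed by 1.78 (limma adjusted p = 0.053), BTG2 by 2.32 (adjusted p = 0.146), GADD45G by 1.67 (adjusted p = 0.101) and RHOB by 0.78 (adjusted p = 0.208). Without YL2, a setting chosen after seeing the data for the lists, the median was 0.59 and limma called the same 4 genes at 0.05.

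Between TH and TL the same list had 4 of 33 higher and 2 lower at an unadjusted p under 0.05, against 11.3% of all tested genes, a median of 0.12 and 0 called by limma. Between YH and YL the unadjusted p was under 0.05 for 0 of 33, against 5.97% of all tested genes, and limma called 0, where 0% of all tested genes were called.

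Regulators that act on early gene promoters gave no call by limma between the breeds. Of 16 looked up, 11 were tested, with a median of 0.27 (0.25 without YL2), and the unadjusted p was under 0.05 for 3 higher and 1 lower, against 13.5% of all tested genes. SRF, the serum response factor, was at 30.47 and 28.6 FPKM (TH), 45.54 and 48.94 FPKM (TL), 25.18 and 24.04 FPKM (YH) and 23.55 and 18.09 FPKM (YL), and differed by 0.70 (SE 0.15, limma adjusted p = 0.121). SRF separated the breeds without overlap. It was 1 of the 11 with every Tibetan library above every Yorkshire library, against 4.57% of all tested genes. Its difference of TH from TL was -0.66 (limma adjusted p = 0.316). MEF2A, a MADS-box factor of muscle, differed by 0.58 (limma adjusted p = 0.285) between the breeds, MEF2D, of the same family, by 0.11, and the kinase MAPK3 by 0.27.

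Partners of the EGR and NR4A proteins gave no call either. Of 6 looked up, 3 were tested, with a median of -0.10, and limma called 0, against 0.0504% of all tested genes (unadjusted p under 0.05 for 0, against 13.5%). NAB1, a corepressor of EGR proteins, differed by 0.26 (limma adjusted p = 0.526). RXRB and RXRG, retinoid X receptors that pair with NR4A1 and NR4A2, differed by -0.10 (limma adjusted p = 0.767) and -0.59 (adjusted p = 0.466). RXRG differed by -1.10 between TH and YH (unadjusted p = 0.0439, limma adjusted p = 0.297).

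The other KLF genes had a median near that of all genes. Of 13 looked up, 9 were tested, with a median of -0.04, and limma called 0, with an unadjusted p under 0.05 for 1, against 13.5% of all tested genes. This was KLF11, named after its value was seen, at -1.04 (SE 0.23, limma adjusted p = 0.135). KLF9 and KLF15, which respond to glucocorticoids, differed by -0.42 (limma adjusted p = 0.371) and -0.45 (adjusted p = 0.538), and KLF3, KLF13 and KLF16 by 0.10, 0.17 and -0.04.

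Among 8 genes known as targets of EGR1 or of KLF2 and KLF4 in vessels, 7 were tested, with a median of 0.57 (0.40 without YL2), and limma called 0 (unadjusted p under 0.05 for 1, higher in the Tibetan libraries, against 13.5% of all tested genes). THBD (thrombomodulin) differed by 0.68 (limma adjusted p = 0.388), F3 (tissue factor) by 0.72 (adjusted p = 0.404), PDGFB by 0.48 and VCAM1 by -0.24.

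**Figure D4:**
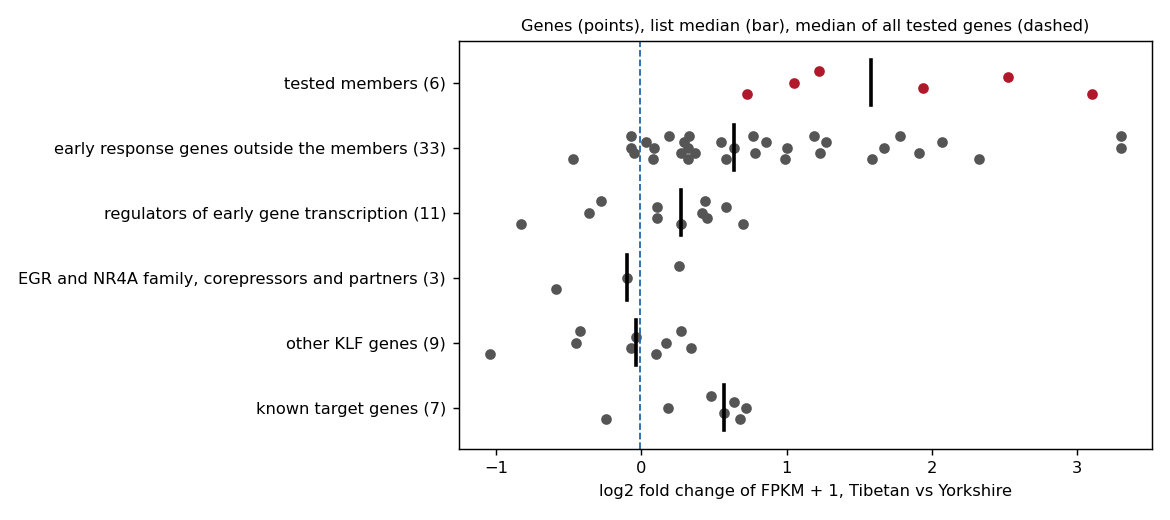
Log2 fold change of FPKM + 1 between Tibetan and Yorkshire libraries for each tested gene (points) of the 6 genes and the 5 lists, with the list median (bar) and the median of all tested genes (dashed line at -0.01). The medians are 1.58 for the 6 genes and 0.64 for the other early response genes, against -0.10 to 0.57 for the other lists.

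Genes whose profile was most like that of the leading gene of each family were found among 4160 other tested genes with a mean of at least 10 FPKM, by the smallest root mean square difference of log2(FPKM + 1) over the 8 libraries, each profile centred on its own mean. All genes share the depth and the pools of these libraries, so this is a description. Nearest to EGR1 was SLPI, a secreted inhibitor of leukocyte proteases, at a root mean square difference of 0.37, then FOS (0.45), CTGF (0.51), CYR61 (0.53) and DUSP1, a MAP kinase phosphatase (0.61), while EGR1 itself varied by 1.34 about its mean. SLPI was at 112.7 to 135.3 FPKM in the Tibetan and 11.32 to 24.09 FPKM in the Yorkshire libraries.

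Nearest to NR4A1 were ATF3 (0.58), OTUD1, a deubiquitinase (0.68), SLPI (0.72), FOS (0.73) and TMEM35 (0.78), where NR4A1 varied by 1.67. ATF3 was at 38.8 and 50 FPKM (TH), 144.4 and 179.6 FPKM (TL), 5.237 and 9.155 FPKM (YH) and 13.52 and 5.167 FPKM (YL), so ATF3 shared with NR4A1 the higher level in TL than in TH. NR4A2, below the minimum of 10 FPKM, was at 0.64 from NR4A1, and EGR1 was at 0.85.

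**Figure D5:**
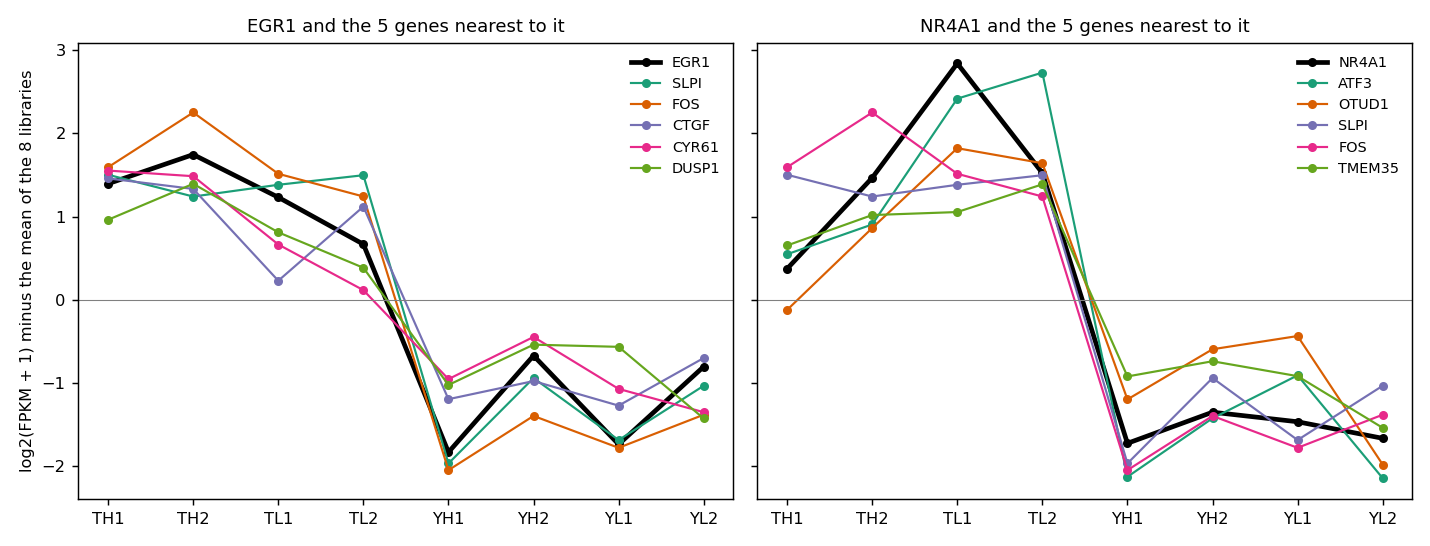
Log2(FPKM + 1) minus the mean of the 8 libraries for EGR1 and NR4A1 (thick lines) and the 5 genes nearest to each (thin lines), by library; the lines join libraries of different groups and show no time course. EGR1 and its neighbours are above 0 in the Tibetan and below 0 in the Yorkshire libraries, and NR4A1, ATF3 and OTUD1 are highest in TL.

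KLF6 varied by 0.50 about its mean, and its nearest genes were an unnamed gene (ENSSSCG00000025146, 0.16), F2RL2, a protease-activated receptor (0.17), P2RX5, an ATP-gated channel (0.17), ZYX, zyxin of focal adhesions (0.18), and LAMA4, a laminin chain of vessel basement membranes (0.19). None of the other 5 tested genes was among them, and the closest of these, the row named KLF2, was at 0.36.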

How the data were processed

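The members and gene lists were chosen with earlier results of these data known. By the study's methods, reads were aligned to Sscrofa10.2 with TopHat and FPKM were computed with Cufflinks. The deposited table gives FPKM per gene and library and, beside them, a signal that the authors scaled from reads by 1 factor per library. Reads behind a value were recovered by dividing that signal by its commonest step, which left 99.8% of the low values whole (tolerance 0.02). Another 8 columns, the authors' group means and ratios, were not used.

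The 11913 of 18975 genes that reached 1 FPKM in 2 or more libraries were tested with limma 3.58.1 in R 4.3.3, moderated with a trend, on log2(FPKM + 1) of all 8 libraries with a term per group, and adjusted over all tested genes with the Benjamini-Hochberg method in each of 6 comparisons. With 2 libraries per group, p-values lean on variance borrowed by limma from other genes. A call needed an adjusted p under 0.01, or 0.05 as an alternative, with a log2 difference above 1 in size. Named were the 10 genes looked up, list genes past the threshold, the 5 highest by mean FPKM in each list and the 5 genes nearest in profile to EGR1, NR4A1 and KLF6. Of the list genes so named, 2 are not reported here. The fit was tested on simulated data. Alternatives were a pseudocount of 0.1, no filter, a mean of at least 10 FPKM, 2 other scalings, no trend, a replicate block, only the libraries compared and each library left out. Limma on log2(scaled reads + 1) was chosen after seeing the data. Summaries used pandas 2.3.3 and numpy 2.4.6 in Python 3.11.15, and plots matplotlib 3.10.9. Gene positions are those of the deposited table; no sequence is printed because no sequence was used here.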

Additional observations from a re-analysis of the deposited data

Results flagged for a closer look

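In 2 of 16 sets of 4 libraries of a breed, 1 library lay far from the other 3 on the log2(FPKM + 1) scale, and about 1 in 20 such sets does so by chance. EGR3 in YH2, at 0.453 FPKM from 12 reads, had a gap to the nearest Yorkshire library that was 0.909 of the range of the 4. NR4A2 in YL1, at 1.72 FPKM from 103 reads, had a gap of 0.873 of the range, with the other 3 Yorkshire libraries at 0.926 to 1.012 FPKM.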

How the results depend on the processing

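Of 588 values of the 6 tested genes over all comparisons and alternatives, 572 kept their direction. Another 16 changed sign where the value before or after was within its standard error of 0. None became a call at an adjusted p under 0.01. The 294 breed differences among them were all above 0. Those of EGR2, which the filter kept through its Tibetan levels, support no direction, and all are fits of the same 8 libraries. At an adjusted p under 0.05, 2 of the 6 genes and 54 of all genes were called between the breeds, 31 in TH vs YH and 12 in TH vs TL. Counts over all genes moved more: scaling by the FPKM sum without mitochondrial genes called 9 in TH vs YH, 3 in TL vs YL, 12 in TH vs TL, 1 in YH vs YL and 10 between the breeds. Limma on scaled reads called 0 in all 6 comparisons, with 724 to 1802 genes at an unadjusted p under 0.05. Scaling by the FPKM sum left 202 to 567 genes at that p over the 6 comparisons and 507 between the breeds, against 711 to 1928 and 1608 as reported, so the shares of all genes set beside the counts depend on the scaling. Only the libraries compared gave 2 in TL vs YL and 11 in TH vs TL, a pseudocount of 0.1 gave 1 in YH vs YL, and a mean of at least 10 FPKM gave 10 between the breeds. With each library left out in turn, the lone library of its group assumed to vary like the others, the counts ran from 1 to 305 in TL vs YL, 4 to 13 in TH vs TL, 0 to 305 in YH vs YL, 4 to 227 between the breeds and 4 to 152 in the interaction, the highest each time without YL1, save in TH vs TL, where leaving out YL1 or YL2 gave 13. YL is then YL2 alone, whose kidney markers stand apart. Without YL2 the counts were 3 in TL vs YL, 10 between the breeds and 7 in the interaction; TL vs YL had 2 without TH1, TH2, YH1 or YH2, and YH vs YL had 1 without YH2. With a replicate block, limma called 3 in TH vs YH, 1 in TL vs YL, 4 in TH vs TL, 0 in YH vs YL, 5 between the breeds and 4 in the interaction, and the adjusted p between the breeds was 0.0618 for EGR1 and 0.0632 for NR4A1. Same-numbered libraries correlated at -0.08 to 0.12 in their deviations across genes. Whether the numbers mark anything beyond the pools was not tested. Median-ratio scaling moved the median of all genes in TH vs YH from -0.03 to -0.13, and scaling by the FPKM sum moved it to -0.14 there and from -0.02 to -0.15 in TH vs TL. An edgeR test on whole reads was planned and not run. Depth limits EGR3, KLF10 and, in the Yorkshire libraries, EGR2, and counts of reads cover counting error only. The cause of these shifts was not tested.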
